A study of Mus musculus with 6 samples.

Results

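A set of 36 genes that copy DNA or prepare a cell to copy it was followed in cultured smooth muscle cells of the mouse aorta. The genes were listed by symbol, with earlier results of these data known, and all 36 symbols were found among the 27179 genes of the deposited table. Messenger RNA had been sequenced in 6 libraries, 3 from wild-type cells (WT) and 3 labelled Bmal1 KO, from primary cells of mice without and with deletion of the circadian clock gene Bmal1. Both groups had spent 7 days in a medium called diabetic, which held glucose at 4.5 g/L and hydrogen peroxide at 0.3 mM. The agents are thus shared, and genotype is the label that differs. Sex-linked transcripts separate the groups as well, as given below. The labels used here give neither the age, strain or sex of the mice, nor how or in which cells Bmal1 was deleted, nor whether replicates were separate cultures, and all 6 libraries carry the same batch label. The p-values therefore reflect the scatter among these libraries alone, and that scatter may be technical.

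Chromosomal DNA is copied once per cell cycle, in S phase. In G1 the origin recognition complex, CDC6 and CDT1 load the MCM helicase onto origins, which is called licensing. CDC45 and the GINS complex then turn the loaded helicase into an active motor, and polymerases, a sliding clamp, a ligase and a supply of deoxynucleotides follow. Many of these genes are transcribed by E2F factors as cells pass from G1 to S, with cyclin E as a partner kinase subunit. Contractile smooth muscle cells of an artery rarely divide, whereas cells in culture with serum do.

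The gene that the label names did not go the way of a lost transcript. Bmal1, listed as Arntl, stood at 529, 619 and 590.4 normalized counts in WT and at 1036, 941 and 1036 in the libraries labelled Bmal1 KO, a 1.73-fold rise (limma adjusted p = 0.000135). A count over the whole gene cannot show a deleted exon, so every direction below is between library labels. Sex-linked transcripts separate the same libraries: Xist stood at 12.4 to 89.9 in WT and 3842 to 3887 in the libraries labelled Bmal1 KO, and Y-linked Ddx3y at 2784 to 3314 and 68.5 to 82.5. Summed smooth muscle markers (Acta2, Tagln, Cnn1, Myh11, Smtn and Cald1, all higher) ran from 51208 to 57139 in WT and from 145402 to 154700 in the others. Of 6 endothelial markers 5 were higher (sums of 326 to 441 against 757 to 977), of 6 macrophage markers 4 were higher and 2 lower (3339 to 3794 against 1529 to 1676), and of 6 fibroblast markers 3 were higher and 3 lower (134050 to 154132 against 216843 to 231941), with no marker at 0 in any library. The macrophage sum mostly follows Cd14 (mean 2886 in WT and 404 in the others). The fibroblast sum mostly follows Col1a1 (103917 and 207061), while Dcn fell (26320 and 2403). Neither sum therefore stands for its list. Genotype label, sex-linked expression and these markers cannot be told apart as sources of any difference below, and their part was not tested. Recovered reads totalled 32503525 to 44657471 per library, and single replication genes had from 50 reads (E2f2) to 8699 reads (Rrm2) in a library.

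The replication genes did not move as a block. All 36 passed the filter on low values, and 9 rose and 11 fell under the Bmal1 KO label, while 16 did not pass (limma with Benjamini-Hochberg adjustment over 16086 genes, threshold 0.05). That is 55.6% called, below the 71.1% of all tested genes, of which 36.2% were higher and 34.9% lower. Counts did not overlap between groups in 22 of the 36, against 76.7% of all tested genes. Only 5 of the 36 both passed and differed at least 2-fold, Rrm2 and Ccne2 upwards and Cdt1, E2f2 and Mcm7 downwards, where 33.6% of all tested genes did. The median log2 fold change was -0.10 (all tested genes -0.01), and the median size without sign was 0.30 (all tested genes 0.63). The tested genes include ones with counts near the filter of 10, and no comparison at like levels is given. With TMM scaling in place of the deposited scaling the split was 8 higher and 16 lower. All tested genes then also leaned lower, with 5438 higher and 6146 lower. In bulk RNA, fewer cells in S phase and less transcript per cell cannot be told apart.

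**Figure D1:**
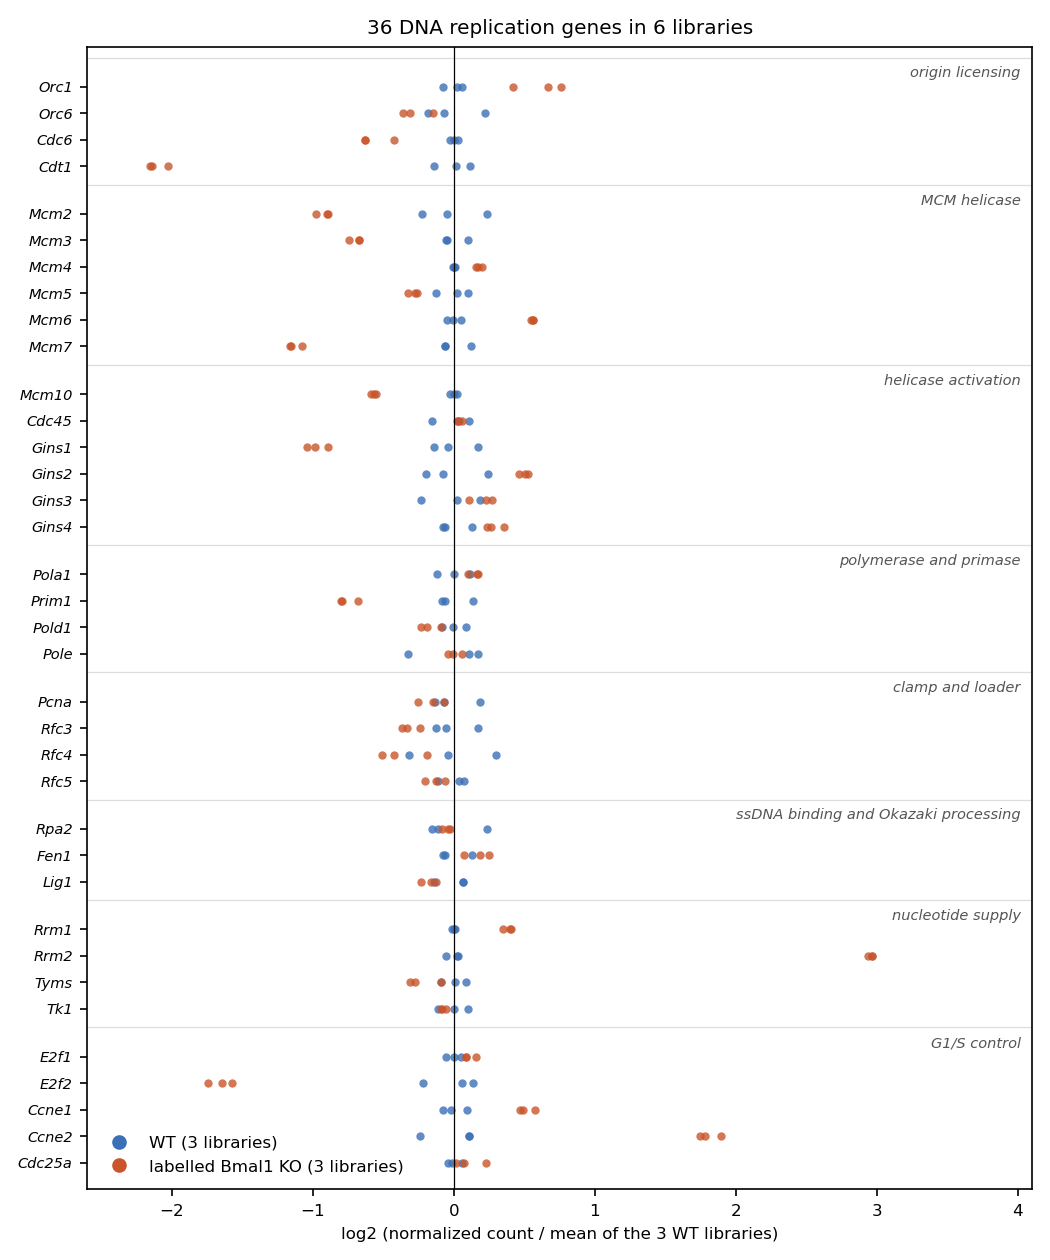
Each point is 1 library, placed on the x axis at the log2 ratio of its normalized count to the mean of the 3 WT libraries (blue, WT; orange, labelled Bmal1 KO), with the 36 genes in rows by role. Most genes lie within 1 log2 unit of WT, Rrm2 and Ccne2 stand to the right, and Cdt1 and E2f2 to the left.

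**Figure D2:**
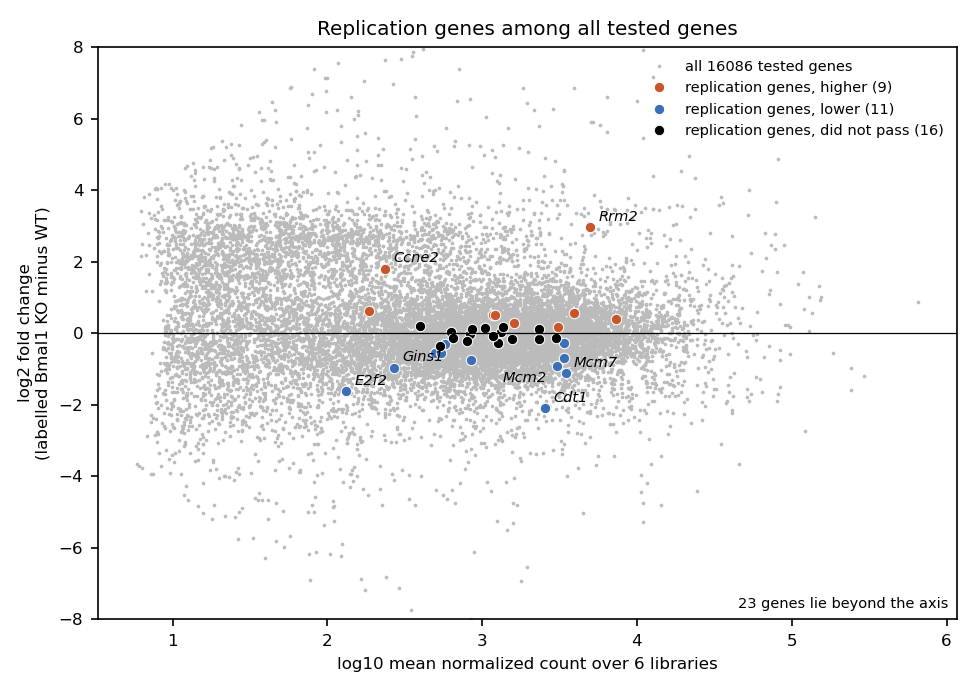
Every tested gene (16086, grey) and the 36 replication genes (orange, higher; blue, lower; black, did not pass) by log10 mean normalized count over the 6 libraries (x axis) and log2 fold change, labelled Bmal1 KO minus WT (y axis, drawn to 8 on either side of 0, with 23 genes outside it). The 16 replication genes that did not pass lie close to 0, and the extremes are Rrm2 at 2.96 and Cdt1 at -2.11.

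Of the 4 licensing genes in the set, Cdt1 and Cdc6 fell, Orc1 rose and Orc6 did not pass. Other subunits of this and the later complexes are in a separate list of replication subunits, described further on, and are not covered by the counts given for the set. Cdt1 (chromosome 8, 122568015 to 122573130, mm10), whose protein brings the MCM helicase to the origin, had 4183, 4499 and 3760 normalized counts in WT and 939, 1016 and 929 in the libraries labelled Bmal1 KO. The groups lie far apart. The fall was 4.32-fold (log2 fold change -2.11, SE 0.08, limma adjusted p = 4.47e-07), the steepest among the 36. Cdc6, the ATPase that acts with CDT1 in loading, went from 574, 586 and 599 to 379, 379 and 437.5, with no overlap (log2 fold change -0.56, adjusted p = 0.00121). Orc1, the largest subunit of the origin recognition complex, went the other way, from 138, 148 and 151 to 195, 231 and 247 (log2 fold change 0.62, adjusted p = 0.00564). Orc6, its smallest subunit, had 1617, 1222 and 1319 in WT and 1248, 1077 and 1115 in the others, and these ranges overlap. Its log2 fold change of -0.27 (95% interval -0.53 to 0.00) missed the threshold (adjusted p = 0.0686), which it passed under 5 of 17 alternatives, among them leaving out WT replicate 2 (adjusted p = 0.0259, range over all 0.0164 to 0.190). Orc6 shares 6.93% of its exon bases with Vps35 on the other strand, whose level was 9267 in WT and 9509 in the others.

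The protein GEMININ restrains CDT1, so the balance of the transcripts was read within each library, where scaling cancels. Per kilobase of transcript, Cdt1 stood at 1.88, 2.90 and 2.55 times Gmnn in WT and at 0.699, 0.792 and 0.680 times in the libraries labelled Bmal1 KO. By this measure, which rests on the transcript lengths used, Cdt1 was the more abundant of the pair in every WT library and the less abundant in every other. Without division by length, Cdt1 was above Gmnn in every library. Gmnn itself did not pass (731 ± 171 and 556 ± 18.2, SD, n = 3, adjusted p = 0.0609).

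All 6 subunits of the MCM helicase passed the test, with 2 higher and 4 lower. Of all tested genes 71.1% passed, 36.2% higher and 34.9% lower. The proteins form a ring with 1 copy of each subunit. Mcm7 (chromosome 5, 138164583 to 138172111) fell most, from 4565, 5172 and 4551 normalized counts in WT to 2257, 2139 and 2133, or 2.19-fold (log2 fold change -1.13, SE 0.07, limma adjusted p = 5.31e-06). Mcm2 had 3420, 4703 and 3866 in WT against 2024, 2156 and 2142 (log2 fold change -0.91, adjusted p = 0.000191). Even the lowest WT library of either gene lies well above the highest of the other group. Mcm3 had 4016, 4451 and 4008 against 2609, 2488 and 2606 (log2 fold change -0.69, adjusted p = 4.45e-05). Mcm5 was nearer to WT, with 3743, 3949 and 3377 against 3073, 2949 and 3048 (log2 fold change -0.28, adjusted p = 0.00759).

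Mcm6 and Mcm4, which sit beside each other in the ring, were higher. Mcm6 (chromosome 1, 128331575 to 128359705) rose from 3145, 3274 and 3060 normalized counts to 4672, 4650 and 4624, or 1.47-fold (log2 fold change 0.56, SE 0.05, limma adjusted p = 5.96e-05). Mcm4 had 2909, 2870 and 2890 in WT and 3310, 3214 and 3258 in the libraries labelled Bmal1 KO (log2 fold change 0.17, adjusted p = 0.0177). The Mcm4 groups do not overlap, yet the step is small. By adjusted p it no longer passed without Bmal1 KO replicate 1 (0.0729), 2 (0.0521) or 3 (0.0638), with TMM scaling (0.0966, log2 fold change 0.11), with edgeR (0.0506) and with voom (0.0569), while its direction held under all 17 alternatives (adjusted p 0.00205 to 0.0966).

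Set on a per-length scale, the order of the subunits turned over. In each WT library Mcm7 was the highest, at 1537 to 1746 normalized counts per kilobase, and Mcm6 the lowest, at 703 to 752. In each library labelled Bmal1 KO, Mcm6 was the highest, at 1062 to 1073, and Mcm2 the lowest, at 579 to 617. The lowest place depends on the transcript lengths used, while the highest does not. Without division by length, Mcm4 was the lowest in each WT library, at 2870 to 2909 normalized counts. Mcm7 was then the lowest in Bmal1 KO replicates 2 and 3, at 2139 and 2133, just below Mcm2 at 2156 and 2142. Of the summed signal of the 6 subunits, where even shares would be 16.7%, Mcm7 held 24.4% ± 0.133 in WT and 14.8% ± 0.366 in the others (SD, n = 3). Mcm6 held 11.0% ± 0.423 and 21.5% ± 0.218. These are shares of RNA, and the make-up of the protein ring was not measured. The ratio of Mcm6 to Mcm7 within a library was 0.469, 0.431 and 0.457 in WT and 1.41, 1.48 and 1.47 in the libraries labelled Bmal1 KO, a 3.22-fold difference that no scaling of libraries can alter. Mcm7 shares 7.25% of its exon bases with Ap4m1 on the other strand, whose own level was 717 in WT and 376 in the others, and the strand setting of the counting is not given in the sources used here.

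**Figure D3:**
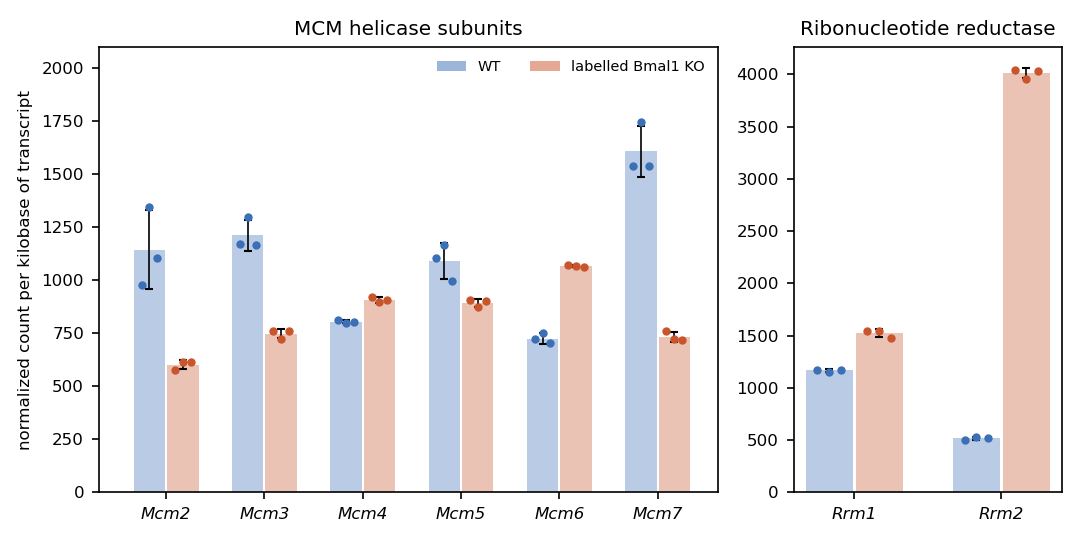
Bars give mean normalized counts per kilobase of transcript with SD (n = 3) and points the libraries (blue, WT; orange, labelled Bmal1 KO), for the MCM subunits on the left and ribonucleotide reductase on the right, each with its own y axis from 0. Mcm7 is highest in WT and Mcm6 in the libraries labelled Bmal1 KO, and Rrm2 lies below Rrm1 in WT and above it in the others.

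Since subunits of a single ring moved apart, the DNA before their start sites is shown beside that of other members. RefSeq promoter windows (GRCm38.p6, 250 bases before to 50 after a start) matched 30 of the 36 genes, all but Ccne2, Gins1, Gins2, Gins4, Mcm4 and Pole. Shown are the last 160 bases before the start site that the window is built on, or the 160 that end 13 bases before it for Rrm2, read 5′ to 3′ along the gene. That start is not always the outermost start of the gene: the stretch of Pola1 lies inside the annotated gene, and those of Mcm5 and Cdc25a run into it. Capitals mark CCAAT (or ATTGG) and the E2F words TTTCCCGC, TTTCGCGC, TTTGCCGC and TTTGGCGC on either strand. The set holds a subunit that rose (Mcm6), subunits that fell (Mcm5 and Mcm3), genes that did not pass (Cdc25a and Pola1), and the largest rise (Rrm2) and fall (Cdt1). Mcm7 and Mcm2, the subunits that fell most, are not shown, and their windows hold 2 and 0 E2F words.
Mcm6 (chr1:128359706-128359865, minus strand): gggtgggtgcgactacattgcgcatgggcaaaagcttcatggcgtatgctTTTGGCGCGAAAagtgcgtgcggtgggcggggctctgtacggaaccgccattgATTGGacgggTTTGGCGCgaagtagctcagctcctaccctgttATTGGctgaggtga
Mcm5 (chr8:75109349-75109508, plus strand): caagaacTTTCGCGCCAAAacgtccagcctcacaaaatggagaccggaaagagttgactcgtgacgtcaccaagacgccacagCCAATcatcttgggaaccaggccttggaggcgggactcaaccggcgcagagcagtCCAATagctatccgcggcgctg
Mcm3 (chr1:20820313-20820472, minus strand): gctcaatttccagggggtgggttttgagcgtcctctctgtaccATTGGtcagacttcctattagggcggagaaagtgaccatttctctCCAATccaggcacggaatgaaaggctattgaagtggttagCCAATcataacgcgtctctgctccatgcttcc
Cdc25a (chr9:109875419-109875578, plus strand): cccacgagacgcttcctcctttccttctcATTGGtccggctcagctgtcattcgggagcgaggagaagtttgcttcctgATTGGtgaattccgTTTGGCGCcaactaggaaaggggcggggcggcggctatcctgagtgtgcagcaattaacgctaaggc
Pola1 (chrX:93632156-93632315, minus strand): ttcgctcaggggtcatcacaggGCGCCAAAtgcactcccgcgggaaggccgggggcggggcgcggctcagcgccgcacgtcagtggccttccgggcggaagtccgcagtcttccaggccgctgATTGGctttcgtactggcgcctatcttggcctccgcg
Rrm2 (chr12:24708081-24708240, plus strand): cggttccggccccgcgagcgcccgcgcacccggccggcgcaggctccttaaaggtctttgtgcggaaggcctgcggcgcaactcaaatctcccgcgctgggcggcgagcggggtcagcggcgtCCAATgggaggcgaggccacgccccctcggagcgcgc
Cdt1 (chr8:122567855-122568014, plus strand): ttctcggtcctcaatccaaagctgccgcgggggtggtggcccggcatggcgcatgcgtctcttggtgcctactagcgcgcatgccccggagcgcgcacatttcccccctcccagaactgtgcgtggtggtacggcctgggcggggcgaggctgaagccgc

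The E2F words stood before genes that rose, fell and did not pass. Mcm6 holds 3 matches and Mcm5 2 in the stretches shown, and in each gene a pair on opposite strands overlaps by 4 bases. Mcm3 and Cdt1 hold E2F words only after that start, within the 300-base window and outside the stretch shown. Over whole windows, 14 of 30 replication genes (46.67%) hold an E2F word, against 4.318% of the 12157 tested genes with a window and 2.265% of all 32851 windows. Among replication genes with a window the count was 7 of the 10 that fell, 2 of the 5 that rose and 5 of the 15 that did not pass. Windows were missing mostly for genes that rose (Ccne2, Gins2, Gins4 and Mcm4), besides Gins1, which fell, and Pole, which did not pass. CCAAT, in either orientation, was in 19 of 30 (63.33%), against 42.52% of tested genes. The E-box CACGTG, the word that CLOCK and BMAL1 bind, was in 3 of 30 (10%), against 11.15% of tested genes, and those were Fen1, Lig1 and Tyms, none of which passed. A match describes letters and not binding.

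The factors that switch the loaded helicase on also split. Gins1, a subunit of the GINS complex, fell from 399.9, 322 and 345 normalized counts to 192, 173 and 179, or 1.96-fold (log2 fold change -0.96, SE 0.13, limma adjusted p = 0.000312). Mcm10, which helps to activate the helicase, went from 636, 651 and 660.3 to 431, 439 and 443 (log2 fold change -0.57, adjusted p = 0.000429). Neither gene has a library that crosses into the other group. Gins4 rose slightly, from 1584, 1389 and 1370 to 1853, 1735 and 1707 (log2 fold change 0.29, adjusted p = 0.0115). Gins2 had 1157, 930 and 854 in WT and 1413, 1390 and 1353 in the others (log2 fold change 0.51, adjusted p = 0.00417). Since 67.3% of the exon bases of Gins2 also belong to Gse1 on the other strand (2373 and 2281 normalized counts in the groups), the level of Gins2 is uncertain. The remaining subunit, Gins3, ran from 316 to 422 in WT and 399.8 to 447 in the others, with a log2 fold change of 0.21 (95% interval -0.09 to 0.51), and passed only after correction for transcript length and GC (0.31, adjusted p = 0.0373, range 0.0373 to 0.494). Cdc45, the partner of GINS on the helicase, ran from 557 to 670 and from 631 to 645 (log2 fold change 0.04, interval -0.18 to 0.26).

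Of the 4 polymerase and primase genes in the set, Prim1, the primase catalytic subunit, passed and the catalytic polymerase subunits did not. Prim1, which lays the RNA primer, fell from 1165, 1003 and 1017 normalized counts to 663, 611 and 610.0, with no overlap (1.69-fold, log2 fold change -0.75, limma adjusted p = 0.000161). Its partner in the same complex, the polymerase alpha subunit Pola1, ran from 917 to 1076 in WT and from 1069 to 1121 in the others (log2 fold change 0.15, 95% interval -0.04 to 0.34). Pold1, the catalytic subunit of lagging-strand polymerase delta, ran from 1566 to 1764 and 1416 to 1563, which do not overlap, and missed the threshold (log2 fold change -0.17, adjusted p = 0.0711), which it passed under 4 of 17 alternatives (range 0.0243 to 0.205). Pole, that of leading-strand polymerase epsilon, had a log2 fold change of 0.02 (interval -0.28 to 0.32). In WT replicate 1 Pole stood at 1060 and in the other WT libraries at 1498 and 1435, and without that replicate its log2 fold change was -0.14. After correction for transcript length and GC it was -0.35 (adjusted p = 0.00300, range over the alternatives 0.00300 to 0.967).

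Of the 4 clamp and clamp loader genes in the set (Pcna, Rfc3, Rfc4 and Rfc5), Rfc3 passed. Pcna, the clamp that tethers polymerases to DNA, had 3590, 3000 and 2880 normalized counts in WT and 3010, 2644 and 2844 in the libraries labelled Bmal1 KO, which overlap (log2 fold change -0.15, 95% interval -0.37 to 0.07). Rfc3, a clamp loader subunit, had 722, 587 and 617 against 498, 543 and 509 (log2 fold change -0.31, limma adjusted p = 0.0285). It no longer passed without WT replicate 1 (adjusted p = 0.0515) or 3 (0.0508), without Bmal1 KO replicate 1 (0.0839) or 3 (0.0789) and with upper-quartile scaling (0.0556), over a range of 0.0114 to 0.0839 among the alternatives. Rfc4 (log2 fold change -0.35, interval -0.74 to 0.03) passed only without WT replicate 2 (adjusted p = 0.0173), with TMM scaling (0.0467) or with the replicate block (0.0217), against 0.230 at most. Rfc5 had a log2 fold change of -0.13 (interval -0.34 to 0.08). Rfc4 shares 12.7% of its exon bases with Eif4a2 on the other strand (10660 in WT and 8872 in the others). Rfc5 shares 10.7% with Wsb2, also on the other strand (5409 and 8070). Since the strand setting is not given, the levels of Rfc4 and Rfc5 are uncertain.

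Rpa2, Fen1 and Lig1, the genes of the set for single-stranded DNA binding and Okazaki fragment joining, did not pass. Rpa2, a subunit of the protein that coats single strands, ran from 763 to 999 in WT and from 801 to 833 in the others (log2 fold change -0.04, 95% interval -0.30 to 0.22). Fen1, the flap nuclease, ran from 1215 to 1401 and 1345 to 1520.5 (log2 fold change 0.17, interval -0.03 to 0.37), and passed under 3 of 17 alternatives, among them leaving out WT replicate 1 (limma adjusted p = 0.0172, range over all 0.00783 to 0.284). Lig1, which seals the nicks, ran from 2242 to 2591 and 2103 to 2260.1 (log2 fold change -0.17, interval -0.35 to 0.00), and passed under 5, among them leaving out WT replicate 3 (adjusted p = 0.0188, range 0.0188 to 0.213). Of the exon bases of Fen1, 78.8% are shared with the antisense gene Gm10143, so its level is uncertain.

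Rrm2 rose most of all the replication genes. It encodes the small subunit of ribonucleotide reductase, the enzyme that makes deoxynucleotides (chromosome 12, 24708254 to 24714146). WT libraries held 1091, 1157 and 1150 normalized counts and libraries labelled Bmal1 KO 8864, 8672 and 8843, a 7.76-fold rise (log2 fold change 2.96, SE 0.06, limma adjusted p = 1.66e-08). Replicates differed by a few percent and the groups by several fold. Rrm1, the large subunit, rose less, from 6403, 6321 and 6436 to 8475, 8429 and 8112 (log2 fold change 0.38, adjusted p = 0.000385). After correction for transcript length and GC the change of Rrm1 was 0.17 (adjusted p = 0.0142, range over the alternatives 1.87e-10 to 0.0142). Per kilobase, Rrm2 stood at 0.426, 0.457 and 0.446 times Rrm1 in WT and at 2.61, 2.57 and 2.72 times in the others, so the scarcer subunit in WT was the more abundant one in the libraries labelled Bmal1 KO. The enzymes that make thymidine nucleotides did not follow. Tyms, thymidylate synthase, ran from 801 to 906 and 691 to 802 (log2 fold change -0.22, 95% interval -0.44 to -0.01, adjusted p = 0.0578), and passed under 6 of 17 alternatives, among them leaving out Bmal1 KO replicate 1 (adjusted p = 0.0352, range over all 0.0249 to 0.179). Tk1, the salvage kinase of S phase, ran from 1114 to 1289 and 1128 to 1159 (log2 fold change -0.07, interval -0.25 to 0.10).

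Regulators of S phase entry moved in both directions. Both cyclin E genes rose, by unlike amounts, and of E2f1 and E2f2 only E2f2 passed, downwards. Ccne2 (cyclin E2, chromosome 4, 11190433 to 11204779) had 113, 88.7 and 113 normalized counts in WT and 389, 352 and 360 in the libraries labelled Bmal1 KO, or 3.50-fold (log2 fold change 1.80, SE 0.15, limma adjusted p = 2.17e-05). Ccne1, the other cyclin E, rose from 1069, 990.1 and 954 to 1500.0, 1393 and 1413 (log2 fold change 0.52, adjusted p = 0.000451). No library of either cyclin crosses between groups, and Ccne1 stayed the more abundant, with Ccne2 per kilobase at 0.0596 to 0.0790 of Ccne1 in WT and 0.168 to 0.173 in the others. Ccne2 shares 17.4% of its exon bases with Ints8 on the other strand, whose level was 638 in WT and 1217 in the others. With the strand setting not given, the level of Ccne2 is uncertain.

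E2f2 (chromosome 4, 136172274 to 136196057), an activating E2F factor, fell from 220, 209 and 172 normalized counts to 67.3, 59.9 and 64.0, or 3.15-fold (log2 fold change -1.63, SE 0.17, limma adjusted p = 7.55e-05). Its relative E2f1 had 2261, 2338 and 2168 in WT and 2516, 2399 and 2396 in the others, which do not overlap, but its log2 fold change of 0.11 (95% interval -0.03 to 0.25) missed the threshold (adjusted p = 0.128), which it passed with upper-quartile scaling (0.0322) and after correction for length and GC (0.0144), over a range of 0.0144 to 0.497. Per kilobase E2f2 was the minor of these factors in every library, at 0.0462 to 0.0566 of E2f1 in WT and 0.0145 to 0.0155 in the others. Cdc25a, the phosphatase that activates the cyclin E kinase, ran from 805 to 862 in WT and 838 to 969 in the others (log2 fold change 0.10, interval -0.09 to 0.30).

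Pathway genes outside the set also went both ways. Over 6 further lists, with every gene tested, 25 were higher, 40 lower and 42 did not pass (60.7% called, against the 71.1% of all tested genes), with a median log2 fold change of -0.14. TMM scaling gave 19 higher and 50 lower, and 5438 higher and 6146 lower among all tested genes. Among 25 other replication subunits, 6 rose and 10 fell (64% called). The polymerase delta subunits parted, with Pold4 lower (log2 fold change -1.29, from 1381 ± 127 to 565 ± 57.8, SD, n = 3), Pold2 lower (-0.78) and Pold3 higher (0.49). The epsilon subunits did too, with Pole2 at -0.88, Pole4 at -0.43 (limma adjusted p = 0.0270) and Pole3 at 0.32. Rpa1, the large single-strand binding subunit, rose (0.43), while its partner Rpa3 fell (-0.44, limma adjusted p = 0.0447).

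Factors that fire origins and hold the fork had 4 of 21 higher and 10 lower, with a median log2 fold change of -0.32. That is 66.7% called, against 71.1% of all tested genes. Recql4, a helicase needed for initiation, fell from 666 ± 88.0 to 216 ± 27.8 normalized counts (SD, n = 3, log2 fold change -1.62, limma adjusted p = 3.02e-05). Mtbp, a partner of the initiation factor TICRR, and Timeless, of the fork protection complex, fell by similar steps (-1.34 and -1.33). Donson, Clspn and Chaf1b rose (0.81, 0.61 and 0.32). Other nucleotide supply genes had 2 of 16 higher and 10 lower (75% called, median -0.43). Shmt1 and Shmt2, which make one-carbon units for thymidylate and purines, had log2 fold changes of -1.94 and -1.83, and Dut, which clears dUTP, of -1.38. Samhd1, which breaks deoxynucleotides down, rose from 4247 ± 283 to 9805 ± 232 (log2 fold change 1.21, adjusted p = 2.79e-06), in the same libraries in which Rrm2 rose, while Umps, of pyrimidine synthesis, rose less (0.32).

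In the list of E2F, RB and DREAM genes, 7 of 17 rose and 2 fell (52.9% called, against 71.1% of all tested genes, median 0.11). The rises were led by repressor members of the E2F family, E2f6 from 908 ± 27.0 to 3680 ± 39.0 normalized counts (SD, n = 3, log2 fold change 2.02, limma adjusted p = 1.13e-07), E2f7 (1.34) and E2f8 (0.75), while Rb1, the retinoblastoma gene, fell (-0.74), as did the E2F partner Tfdp2 (-0.49). Of 13 S-phase kinase genes 4 rose and 4 fell (61.5% called). Cyclin A gene Ccna2 and the inhibitory kinase gene Wee1 had log2 fold changes of 1.15 and 1.12 and the CDK inhibitor genes Cdkn1c and Cdkn1b of 0.82 and -1.28, with Cks1b at -0.87 and Skp2 at -0.52. In the replication checkpoint list 2 of 15 rose and 4 fell (40% called, median -0.09). Atr was at 0.77, Brca2 at 0.74, Rad1 at -0.82, Etaa1 at -0.53 and Fancd2 at -0.37. Brca2 no longer passed after correction for length and GC (0.23, adjusted p = 0.0989). Fancd2 no longer passed with upper-quartile scaling (adjusted p = 0.0518) and without WT replicate 2 (0.0783) or 3 (0.0889) or Bmal1 KO replicate 1 (0.0844) or 3 (0.0900).

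Genes of mitosis, the later phase of the cell cycle, were set beside them. Of 20 such genes 19 rose (95%, against 36.2% of all tested genes), and the median log2 fold change was 0.80. By limma, edgeR or DESeq2 0 fell (also 0 at an unadjusted p under 0.05, since all 20 fold changes were positive). Birc5 did not pass (858 ± 143 and 1040.3 ± 71.9, SD, n = 3, limma adjusted p = 0.0673). The kinetochore gene Cenpf had a log2 fold change of 1.73, the kinase gene Plk1 of 1.45 and the kinesin gene Kif20a of 1.41. Taking each gene against its WT mean, the median log2 ratio of the mitosis genes was 0.73 to 0.87 in the libraries labelled Bmal1 KO, and that of the replication genes -0.07 to -0.10. In WT libraries these medians ran from -0.03 to 0.03 and from -0.06 to 0.06. The difference between the lists was not tested, and both come from the same libraries. Promoter windows of both lists are given as a description, and a link to the fold changes was not tested. An E2F word was in 0 of 17 mitosis genes with a window and in 14 of 30 replication genes, against 4.318% of tested genes. TTTGAA, the core of the cell cycle homology region (CHR), was in 12 of 17 (70.59%) and 5 of 30 (16.67%), against 14.3% of tested genes.

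**Figure D4:**
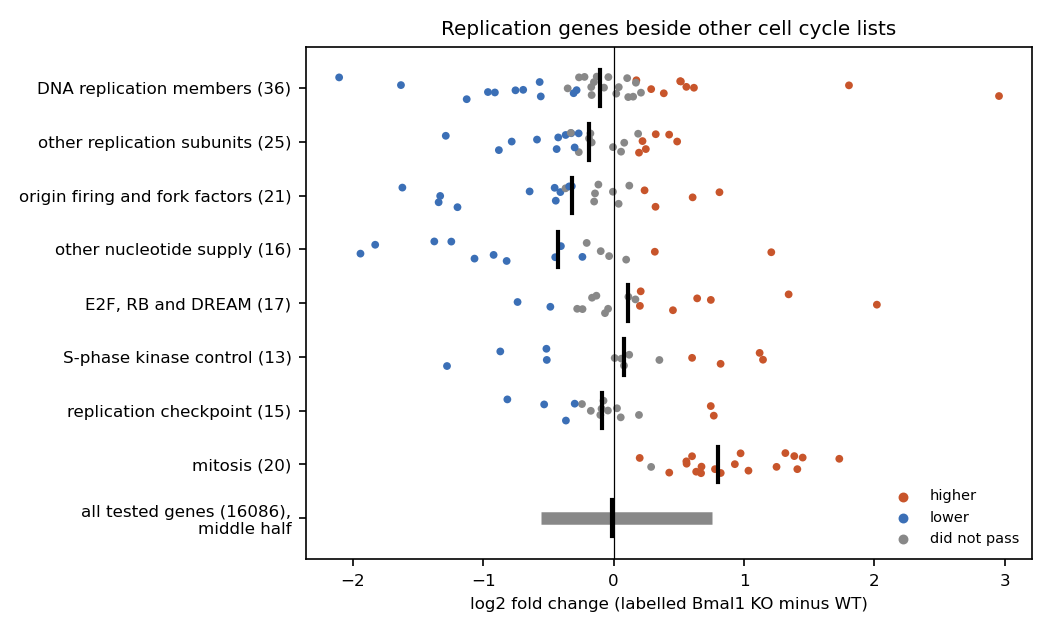
Each point is a gene, at its log2 fold change, labelled Bmal1 KO minus WT (x axis; orange, higher; blue, lower; grey, did not pass), in rows by list with the number of genes; black bars are medians and the grey bar spans the middle 50% of all tested genes. Replication genes lie on both sides of 0 with a median of -0.10, and all 20 mitosis genes lie to the right, with a median of 0.80.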

How the data were processed

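Gene-level expression was taken from a single table of 27179 genes in 6 libraries, grouped by sample title. The deposited signal is a normalized read count per gene: in each library 100% of values were whole multiples of 1 step within 0.01, so the authors had divided read counts by a size factor per library (0.834 to 1.21), which equalled median-ratio factors recomputed from the recovered reads. Trimmomatic, HISAT2, featureCounts and mm10 are named, without versions, in the submitters' processing notes, and libraries came from 1.0 µg of RNA with a stranded mRNA kit per the labels' protocols. The annotation and the strand setting were not given in the sources used here, so reads of overlapping genes cannot be told apart. Columns left unmapped numbered 0.

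The test was limma 3.58.1 in R 4.3.3 (linear model, eBayes with a mean-variance trend) on log2(value + 1) for genes that reached 10 in 3 or more libraries, with group as the only term and Benjamini-Hochberg adjustment over all 16086 genes at 0.05. Log2 fold changes are on that scale, which understates changes of low genes, and folds are ratios of mean normalized counts. Levels per kilobase use the longest GENCODE M21 transcript of the gene. The scripts were tested on simulated data. Every pair of replicates differed beyond sampling noise (chi-square per degree of freedom 10.1 to 71.6). Alternatives were TMM and upper-quartile scaling, pseudocounts of 0.5 and 10, no filter or a filter at 50, the replicate number as a block, edgeR 4.0.16 (11479 genes called), DESeq2 1.42.0 and voom on recovered reads, removal of a length and GC trend (the overall median was retained), and leaving out each library. Those for lists and genes outside the 36 were added after seeing the data. The 36 genes and all lists were chosen with earlier results of these data known, and within-library ratios and printed promoters after values were seen. Of each other list, up to 3 rising and 3 falling genes with the largest change and a mean of at least 50 were named. Gmnn, Ap4m1, Gse1, Ints8, Gm10143, Eif4a2, Wsb2, Vps35, Birc5, Pole4 and Rpa3 were named for other reasons after their values were seen. Coordinates are from RefSeq on GRCm38.p6, the mm10 build, counted from 1.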

Additional observations from a re-analysis of the deposited data

How the results depend on the processing

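Over 17 alternatives, 21 of the 36 replication genes kept both direction and call and 15 changed in at least 1. The counts of replication genes called stayed between 8 and 12 higher and between 10 and 16 lower. Counts for the other pathway genes (19 to 27 higher, 32 to 50 lower) and mitosis (18 to 20 higher, 0 lower) also stayed within 1.5 times their reported values. The median log2 fold change of the replication genes was -0.10. It became -0.16 with TMM scaling, -0.049 with upper-quartile scaling, -0.13 with edgeR and -0.13 with voom, and ran from -0.16 to -0.082 when single libraries were left out. Scalings move every gene by a shared amount, which is how these are built.

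Signs turned only for genes that had not passed. Cdc45 was -0.021 with TMM scaling and ran from -0.037 to 0.095 without single libraries. Pole was -0.041 with TMM, -0.029 with edgeR, -0.012 with voom and -0.35 after the length and GC correction, and ran from -0.14 to 0.11 without single libraries. Rpa2 was 0.012 with upper-quartile scaling and 0.055 after that correction, and ran from -0.11 to 0.081 without single libraries. After it Pola1 was -0.083 and Tk1 0.012. The cause was not tested.

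Replicate numbers gave no clear sign of pairing the libraries, though 3 libraries a group cannot exclude it. Same-numbered libraries had correlations of their deviations of -0.0045, 0.026 and 0.084, and not every library correlated best with its own number. With the replicate number as a block, 9 replication genes were higher and 15 lower, and 11556 genes were called in all against 11435. Where an arm was left with 2 libraries, the spread of a gene was pooled over both arms. That spread was also drawn towards the trend over all genes, as in the main fit. With 3 libraries a group, small differences such as those of Pold1, Lig1, Tyms and Orc6 were near the threshold and could fall on either side of it.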
